A study of Mus musculus with 53 samples.

Results

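The genes described here are 10 that mark endothelial cells, the cells that line blood vessels: Kdr, Flt1, Tek, Tie1, Aplnr, Cdh5, Cldn5, Esam, Pecam1 and Emcn. They were taken as all probe sets of a mouse GeneChip array whose platform annotation gives one of these symbols, which found 14 of the 45037 probe sets that are not controls, and 10 of the 17097 genes with a symbol. Flt1 had 3 probe sets, Cdh5 and Aplnr had 2 each, and the other 7 genes had 1. A gene is given by its brightest probe set over all 53 arrays. A level is the log2 of the deposited intensity, with values below 3.55 set to 3.55. This floor was set for the present work, at the median over arrays of the 20th percentile, and an array at the floor is not thereby shown to lack the gene. Levels of different genes are not compared, since probe sets differ in brightness.

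The 53 arrays fell into 9 groups of mouse samples. Primary embryonic mesenchymal cells (eMCs), dissociated from limb soft parts of BALB/c embryos near term, were profiled 48 h after a retrovirus without an insert (eMC empty, pMYs-IRES-GFP, 4 arrays) or with the synovial sarcoma fusion gene (eMC SS18-SSX1, pMYs-SS18-SSX1, 4 arrays). SS tumors (12 arrays) grew under the skin of nude mice from eMCs that carried SS18-SSX1, and SS214 tumors (13 arrays) from eMCs whose vector carried SS18-SSX1 together with miR-214. The synovial sarcoma cell lines SS40 and SS64 were grown in culture and received miR-214 or a control written NC in the labels, with 4 arrays in each of the 4 groups. A mixture of normal tissues served as reference (4 arrays). Nude mice keep their own vessels, so a tumor array measures host endothelium together with tumor cells, whereas the line arrays hold cultured cells without a host. The fusion gene came from a retroviral promoter in a mixed primary culture. The labels do not say whether the 4 arrays of a group came from separate cultures, and p-values then measure only the spread between these arrays. In every bulk sample, fewer endothelial cells and less RNA per cell cannot be told apart.

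Endothelial cells grow and survive under vascular endothelial growth factor, which acts through the receptor Kdr and is also bound by Flt1. The angiopoietins act through Tek, and Tie1 is its partner receptor without a ligand of high affinity. Aplnr is the receptor for apelin in sprouting vessels. Cdh5 (VE-cadherin), Cldn5 (a tight-junction claudin), Esam and Pecam1 hold endothelial cells together, and Emcn is a sialomucin of capillary and venous endothelium.

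Promoter sequences of 6 of the 10 genes were held in a RefSeq table (GRCm38.p6). They are shown for Emcn and Cldn5, which rose most among these 6 in the comparison of the eMCs, and for Tie1, which stayed close to the floor in most groups. The windows of Tek, Kdr and Flt1 overlap longer gene models and are not used. Each run is upstream sequence on the gene's strand and ends before the annotated gene begins, with every GGAA or TTCC, the core letters bound by ETS factors, in capitals. They cover chr3:137340828-137341061 (+) for Emcn, chr16:18776597-18776846 (+) for Cldn5 and chr4:118489850-118490099 (-) for Tie1.
Emcn: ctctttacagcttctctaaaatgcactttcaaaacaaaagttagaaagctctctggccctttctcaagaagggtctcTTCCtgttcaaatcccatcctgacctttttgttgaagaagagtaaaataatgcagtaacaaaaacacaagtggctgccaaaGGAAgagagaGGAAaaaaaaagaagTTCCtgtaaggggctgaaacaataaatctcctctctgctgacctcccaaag
Cldn5: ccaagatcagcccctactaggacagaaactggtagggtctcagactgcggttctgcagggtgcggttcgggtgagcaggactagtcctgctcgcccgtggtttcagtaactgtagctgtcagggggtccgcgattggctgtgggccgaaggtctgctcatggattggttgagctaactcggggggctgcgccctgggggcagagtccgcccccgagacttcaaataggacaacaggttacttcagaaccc
Tie1: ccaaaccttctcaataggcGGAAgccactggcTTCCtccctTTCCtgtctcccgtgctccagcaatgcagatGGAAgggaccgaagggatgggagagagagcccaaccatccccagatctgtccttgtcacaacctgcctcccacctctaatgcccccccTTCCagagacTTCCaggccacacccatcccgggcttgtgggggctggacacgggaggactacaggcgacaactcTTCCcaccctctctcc

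The letters GGAA, read on both strands, occurred 4 times before Emcn, 7 times before Tie1 and 0 times before Cldn5. Over the 250 bases before the start of 32851 promoters in the table, 93.4% held GGAA at least once. The longer AGGAAG, which contains GGAA, occurred 2 times before Emcn and 1 time before Tie1, and was present in 29.5% of all promoters. GGGCGG, the SP1 letters, occurred 1 time before Cldn5 and before neither of the others, against 32.7% of all promoters. ACAAT, a SOX core, occurred 1 time before Emcn alone, against 27.7%. The GATA letters AGATAA (9.99% of all promoters), the CRE letters TGACGTCA (1.55%) and TATAAA (12.4%) were found before none of the 3 genes. Emcn and Cldn5 shared none of these motifs. A match is a description of the letters and not of a bound site.

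At 48 h, eMCs with SS18-SSX1 had higher levels of most endothelial genes than eMC empty cells. Both groups were profiled at this time only, so rose and fell mean higher and lower than in eMC empty. The part of a difference between cultures was not tested. Aplnr, Emcn, Cldn5, Cdh5, Esam, Tek, Kdr and Pecam1 rose, by 1.26 to 4.44 on the log2 scale, and none of the 10 genes fell. A gene was called where limma gave a fold change over 2 with an adjusted p under 0.05. These 8 of 10 genes stood beside 2.73% of the 15328 genes tested that were called higher and 3.65% called in either direction. The 10 genes were chosen with earlier results of these data known, so these shares are a description. All 10 passed the adjusted p alone, as did 48.9% of all genes. The median difference over the 10 genes was 1.82, and over all genes tested it was -0.00013. The groups did not overlap for any of the 10 genes, nor for 46.5% of all genes tested.

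The receptors of this set differed widely in the size of the change. Aplnr lay at 4.02, 4.13, 4.12 and 4.02 in the eMC empty arrays and at 8.48, 8.52, 8.57 and 8.48 in the eMC SS18-SSX1 arrays. The difference of 4.44 ± 0.06 (SE) was the widest of the set (adjusted p = 1.88e-16, limma). The eMC empty values lay below the 40th percentile, and with the floor raised to it the difference was at least 4.36. Its other probe set gave 0.84 ± 0.11 and was not called. Kdr rose from 5.91 to 6.05 in the eMC empty arrays to 7.48 to 7.61, a difference of 1.57 ± 0.06 (adjusted p = 7.71e-12, limma). Flt1 differed by 0.92 ± 0.08 by its brightest probe set, short of a 2-fold change with an adjusted p of 1.6e-07 by limma, and by 1.29 ± 0.11 by a dimmer one, which passed. Tek rose by 1.71 ± 0.08, and by at least 1.64 with the higher floor, under which its eMC empty values also lay. Tie1 was at the floor on every eMC empty array and at 3.77 to 3.86 with SS18-SSX1, which is at least 1.20-fold higher and was not called.

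All 4 junction genes rose. Cdh5 was at the floor on 3 eMC empty arrays and at 3.69 on the fourth, against 6.42, 6.33, 6.27 and 6.23 with SS18-SSX1. The groups were far apart, with a difference of 2.73 ± 0.08 (adjusted p = 3.53e-13, limma). The other Cdh5 probe set stayed between 3.62 and 4.12 on all 53 arrays, the tissue mix included, and showed no difference here (-0.08 ± 0.07). Cldn5 moved from 4.93, 5.21, 4.80 and 4.87 to 8.10, 7.97, 8.04 and 8.06. Its values with SS18-SSX1 lay above those of every tumor and below those of the tissue mix (9.56 to 9.68). Esam rose by 1.93 ± 0.07 and Pecam1 by 1.26 ± 0.08. With the floor raised to the 40th percentile, the Pecam1 difference was 0.74 and its call was lost.

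Emcn moved from 4.35, 4.53, 4.04 and 4.43 to 7.77, 7.92, 7.90 and 7.93. It was the single gene of the set whose highest group was eMC SS18-SSX1, and these 4 arrays lay above all 4 of the tissue mix (7.17 to 7.52). For Flt1 the highest group was SS64 NC, and for the other 8 genes the tissue mix.

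**Figure D1:**
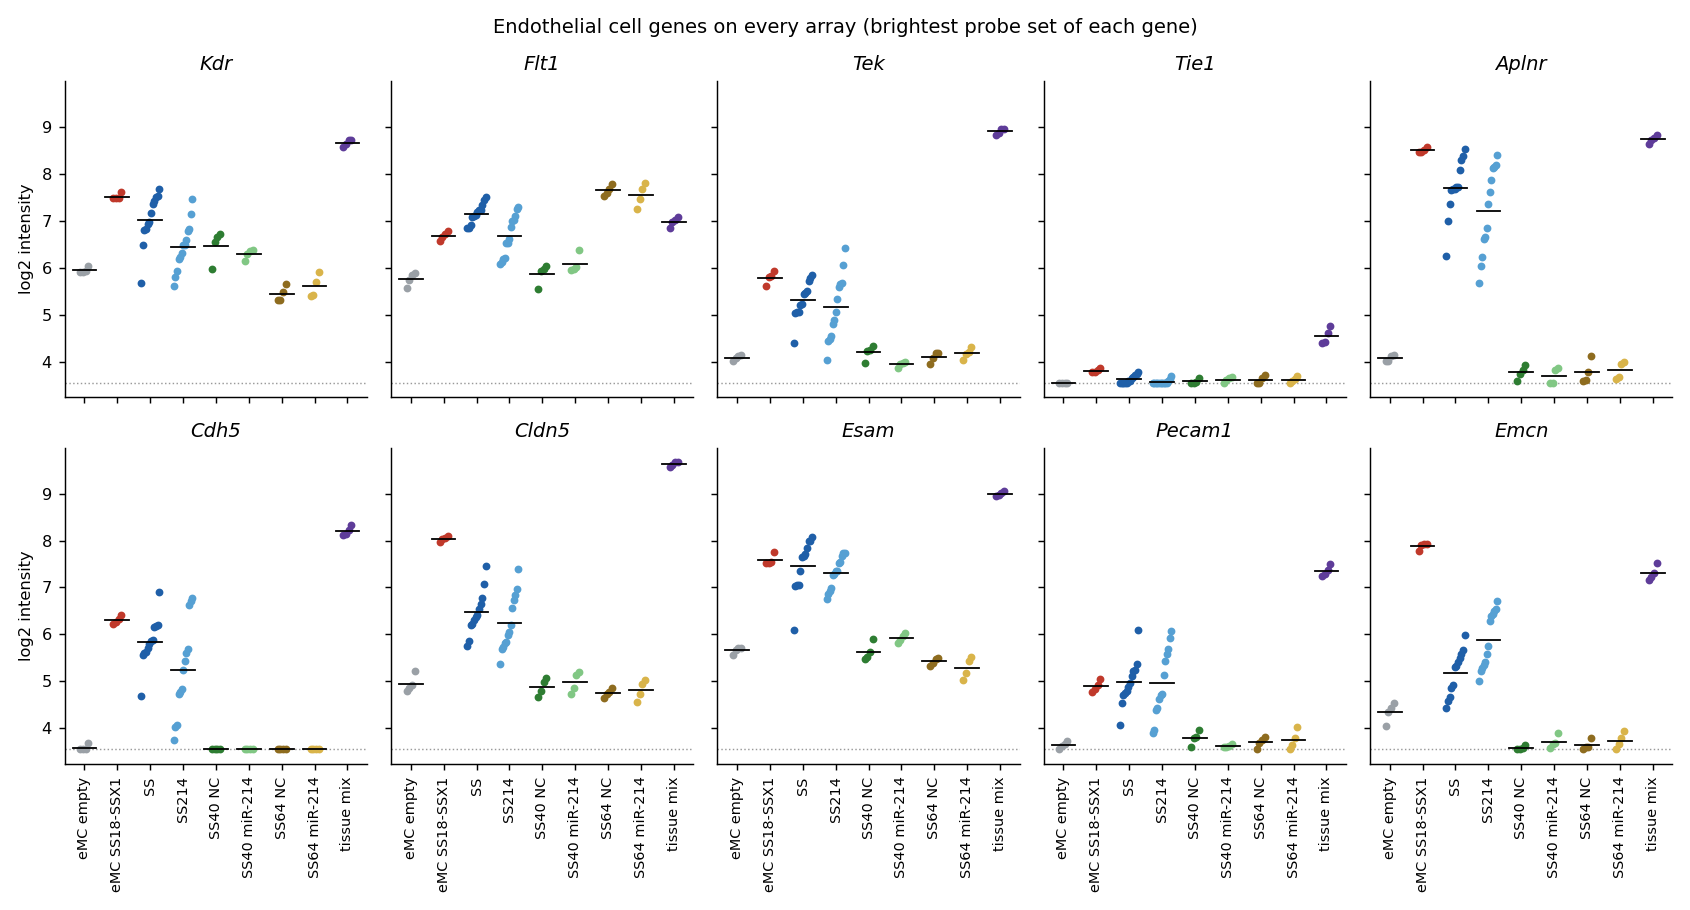
Log2 intensity of the 10 endothelial genes (brightest probe set of each) on all 53 arrays, by group; points are arrays, black bars group means and the dotted line the floor at 3.55. The eMC SS18-SSX1 arrays lie above the eMC empty arrays in every panel, the tumors spread widely, and the lines lie near the floor for most genes but not for Kdr, Flt1, Cldn5 and Esam.

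Other genes of the vessel wall were read from lists by function. Of 33 further endothelial markers, 12 rose and 0 fell in eMC SS18-SSX1. They included Gpihbp1, which anchors lipoprotein lipase in capillaries (2.98 ± 0.12), Cd93 (2.70 ± 0.08) and Ecscr (2.49 ± 0.09). Of 21 endothelial transcription factors, 3 rose, namely Sox17 (2.41 ± 0.09), Sox18 (1.91 ± 0.11) and Lmo2 (1.17 ± 0.07). Of 10 ligands, 2 rose: Angpt2, a ligand of Tek (2.04 ± 0.06), and Pgf, a ligand of Flt1 (1.93 ± 0.09). Of 10 Notch genes, the ligand Jag1 (1.75 ± 0.13) and the target Hey1 (1.22 ± 0.09) rose. Of 16 further receptors, 3 rose, with Ednrb, the endothelin receptor B, at 2.38 ± 0.06. Among 14 junction partners F11r and Cdh2 rose and Jam2 fell by 1.01.

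Markers of other cell types moved in the same comparison. Of 8 mast cell genes, 6 rose, with Tpsab1 at 5.15 ± 0.07, and the summed intensity of the list was 149 to 158 in eMC empty and 1798 to 1858 in eMC SS18-SSX1. Of 9 neutrophil genes, 5 rose, with S100a9 at 3.95 ± 0.05, and their sum was 492.6 to 542.2 against 4270 to 4368. Of 6 smooth muscle genes, 5 rose (sums of 2535 to 2607 against 6375 to 6594), as did 4 of 10 pericyte and mural cell genes (553 to 589 against 928 to 978) and 3 of 12 skeletal muscle genes. One list could move without a call: none of 12 macrophage genes was called, while their sum was 2460 to 2565 against 3613 to 3781. None of 8 fibroblast matrix genes was called (14483 to 14816 against 14599 to 14894). Of 9 red cell and platelet genes 1 rose, as did 1 of 5 adipocyte genes. No mast cell, neutrophil, smooth muscle or mural marker was at the floor on every array of either group. The part of these cell types in the endothelial differences was not tested.

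In the SS tumors the same 10 genes were compared with the eMC empty cells. The eMC empty arrays are those of the comparison above, so the 2 sets of differences are not independent. Aplnr, Cdh5, Esam, Cldn5, Flt1, Pecam1, Tek and Kdr were higher in the tumors, by 1.08 to 3.63. These 8 of 10 genes compare with 14.5% of the 15625 genes tested that were called higher. The median difference was 1.37 over the endothelial genes and -0.03 over all genes tested.

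Aplnr ranged from 6.25 to 8.53 in the SS tumors with a median of 7.70, and every tumor lay above the eMC empty arrays. The difference was 3.63 ± 0.30 (adjusted p = 8.09e-09, limma). Esam ranged from 6.10 to 8.08 with a median of 7.67, 1.80 ± 0.27 above eMC empty (adjusted p = 1.61e-05, limma). Flt1 ranged from 6.84 to 7.50 with a median of 7.15, the narrowest spread of the set after Tie1, and differed by 1.39 ± 0.12. Kdr ranged from 5.67 to 7.67 and overlapped with the eMC empty arrays, with a difference of 1.08 ± 0.26 (adjusted p = 0.00175, limma) that fell under 2-fold after quantile normalization (0.87). The 2 genes without a call were Emcn at 0.84 ± 0.24 and Tie1 at 0.08 ± 0.04. Pecam1 was again short of 2-fold with the higher floor (0.83).

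Markers of skeletal muscle, all 12 of 12 called higher, moved with this comparison, with sums of 15702 to 65986 in the tumors and 603 to 656 in eMC empty. So did 6 of 8 mast cell genes and 3 of 10 mural cell genes. Signal of the 3' Gapdh control over that of the 5' control, which is higher where RNA is degraded, had a log2 value of 0.85 ± 0.37 in the 12 SS tumors (mean and SD) and between -0.18 and 0.06 as a mean in each of the other 8 groups. The part of muscle, mast cells, mural cells and RNA integrity was not tested, and it touches every comparison that uses the SS tumors.

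Against eMC SS18-SSX1, the SS tumors were lower for Emcn and Cldn5 alone. These 2 calls of 10 stood beside 22.8% of the 15512 genes called in either direction and 9.94% called lower. Emcn ranged from 4.43 to 5.98 over the tumors with a median of 5.31, so that each tumor lay below each eMC SS18-SSX1 array. The difference was -2.70 ± 0.23 (adjusted p = 1.97e-08, limma), and for Cldn5 it was -1.57 ± 0.23. Aplnr (-0.81 ± 0.30), Tek (-0.48 ± 0.20), Tie1 (-0.19 ± 0.05) and Flt1 (0.47 ± 0.12) passed the adjusted p without a 2-fold change, which made 6 of 10 with Emcn and Cldn5, beside 64.6% of all genes. The dimmer Flt1 probe set gave 1.95 ± 0.14 here and passed. For Esam the interval of the difference ran from -0.70 to 0.44, and for Pecam1 from -0.42 to 0.59. Of 6 smooth muscle genes, 4 were lower in the tumors (sums of 455 to 1563 against 6375 to 6594), and all 12 skeletal muscle genes were higher, and their part was not tested. The ligand list moved as well: 6 of 10 ligands were lower in the tumors, with Vegfd at -2.81 ± 0.14, Angpt2 at -1.87 ± 0.32, Apln, the ligand of Aplnr, at -1.70 ± 0.15 and Angpt4 at -1.63 ± 0.12.

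The tissue mix served as the reference from normal organs. The paper lists brain, lung, liver, heart, muscle, kidney, intestine, ovary, bone marrow and skin as its parts. How much endothelium the mix holds is not given. Here 8 of the 10 genes were lower in the SS tumors, beside 13.8% of the 15679 genes tested that were called lower. The median difference was -1.88 over the endothelial genes and 0.07 over all genes. Tek lay at 8.83 to 8.96 in the mix and at 4.40 to 5.85 in the tumors, a difference of -3.60 ± 0.20, or 12.1-fold lower in the tumors (adjusted p = 2.7e-11, limma). Cldn5 differed by -3.16 ± 0.23, Pecam1 by -2.37 ± 0.24, Cdh5 by -2.36 ± 0.25 and Emcn by -2.12 ± 0.24.

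Aplnr was the member nearest to the mix among those called, at -1.04 ± 0.30 (adjusted p = 0.00608, limma). This call was lost without SS tumor 5 (-0.91) and with the mean over its probe sets (-0.69). Flt1 was not called: its values of 6.84, 6.97, 7.02 and 7.09 in the mix overlapped with the tumor range of 6.84 to 7.50, and the difference was 0.17 ± 0.12 (interval -0.07 to 0.42). Tie1, with a mean of 4.55 in the mix, was at -0.93 ± 0.06, short of a 2-fold change. Of the 33 further endothelial markers, 21 were lower and 1 was higher, with Lyve1, a marker of lymphatic endothelium, at -4.52 ± 0.32. Prox1, the transcription factor of lymphatic endothelium, was higher in the tumors (3.25 ± 0.22). The mix also held more neutrophil signal (9 of 9 genes lower in the tumors), smooth muscle (6 of 6) and lung epithelium (4 of 4), and their part was not tested.

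**Figure D2:**
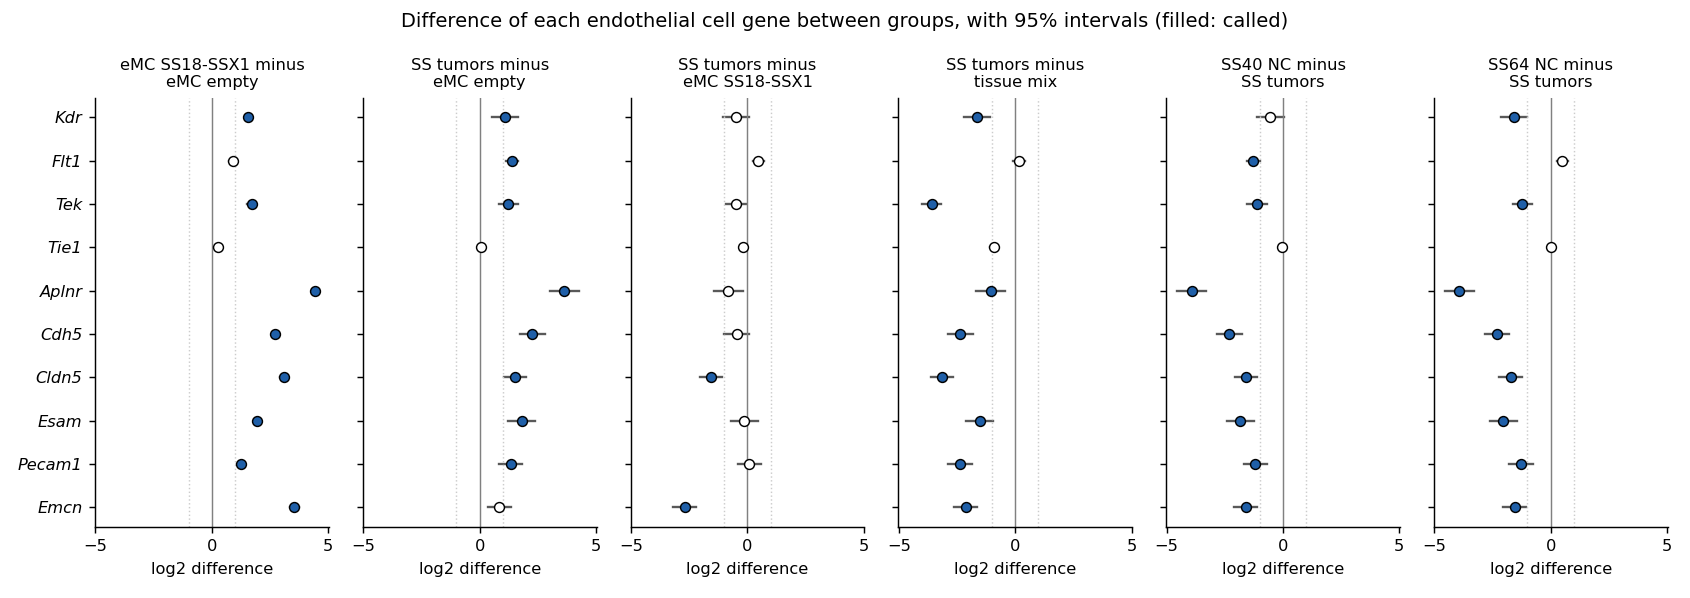
Log2 difference of the 10 endothelial genes in 6 comparisons, with 95% intervals from limma; filled points were called, and dotted lines mark 2-fold. Emcn and Cldn5 stand apart in the comparison of tumors with eMC SS18-SSX1 (-2.70 and -1.57), and Flt1 and Tie1 are the genes least often called.

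The lines were grown in culture without a host, and the part of this in the differences from the tumors was not tested. Compared with the SS tumors, SS40 NC and SS64 NC cells were each lower for 8 of the 10 genes. The share of all genes called lower was 16.3% of 15619 in SS40 NC and 15.5% of 15645 in SS64 NC. The median differences were -1.43 and -1.57 over the endothelial genes and 0.07 and 0.06 over all genes. Both comparisons use the same 12 tumors.

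Cdh5 was at the floor on all 16 line arrays, and the tumors (4.69 to 6.91, median 5.83) were at least 4.92-fold higher than either NC group. Aplnr lay at 3.60 to 3.94 in SS40 NC and 3.60 to 4.12 in SS64 NC, below every tumor (-3.93 ± 0.30 in each, adjusted p = 2.31e-09 and 2.82e-09, limma). All its line values lay below the 40th percentile, and with the floor raised to it the tumors were higher by at least 3.55 on the log2 scale. Over all 16 line arrays Emcn reached at most 3.95, Pecam1 4.02 and Tie1 3.71, and Tek lay between 3.87 and 4.34. Cldn5 (4.55 to 5.20) and Esam (5.02 to 6.02) lay further above the floor, and both were called lower than in the tumors in each line. Pecam1, called at -1.19 ± 0.24 and -1.28 ± 0.24, lost its call in both lines with the floor at the 40th percentile (-0.83 in each).

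Kdr and Flt1, the VEGF receptors, lay above the floor in the lines and were ordered in opposite ways. Whether each line expresses them was not tested, and Kdr in SS64 NC lay below the eMC empty arrays (5.91 to 6.05). Kdr lay at 6.65, 5.97, 6.72 and 6.56 in SS40 NC and at 5.31, 5.31, 5.65 and 5.48 in SS64 NC. Flt1 lay at 6.04, 5.98, 5.94 and 5.56 in SS40 NC and at 7.68, 7.79, 7.61 and 7.53 in SS64 NC. The lines did not overlap for either gene, although the difference between lines was not tested. Relative to the tumors, Kdr was at -0.55 ± 0.28 in SS40 NC (adjusted p = 0.0864, limma, not called) and at -1.59 ± 0.27 in SS64 NC (called). Flt1 was lower in SS40 NC (-1.28 ± 0.13), while every SS64 NC array lay above every tumor, with means that differed by 0.50 ± 0.12, short of 2-fold (adjusted p = 0.00132, limma).

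The probe sets of Flt1 differed in the size of these differences. The middle one gave -2.87 ± 0.15 for SS40 NC and 0.29 ± 0.14 for SS64 NC against the tumors, and 3.24 ± 0.15 for tumors against eMC empty, where the brightest gave 1.39. The faintest gave 0.06 ± 0.08, 0.93 ± 0.08 and 0.28 ± 0.08. All 3 placed SS64 NC highest of the 9 groups. In which transcripts of the gene the probe sets lie was not examined here.

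**Figure D3:**
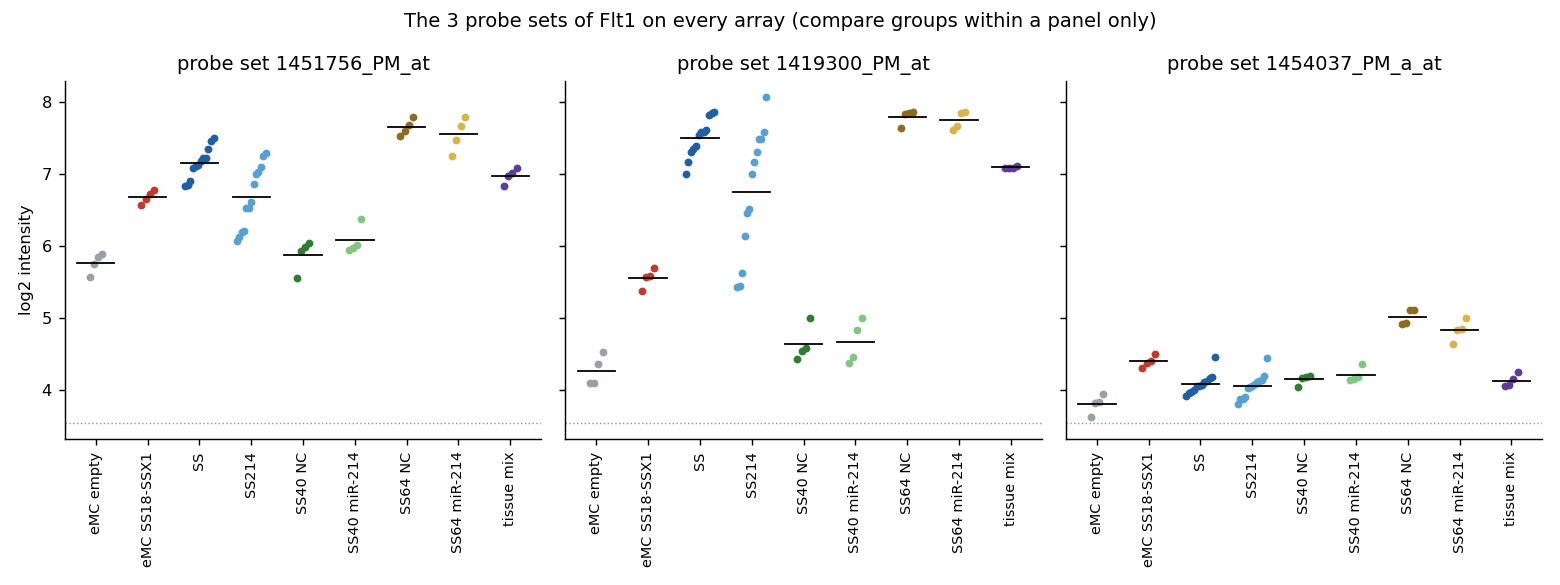
Log2 intensity of the 3 Flt1 probe sets on all 53 arrays, by group; points are arrays, black bars group means and the dotted line the floor. The SS64 groups are high in each panel, whereas the step from eMC empty to the SS tumors is 1.39, 3.24 and 0.28 from left to right.

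The other vessel genes differed between lines and tumors as follows. Of 21 endothelial transcription factors, 10 were lower in SS40 NC and 11 in SS64 NC, with 2 higher in each. Lmo2 was at -5.58 ± 0.15 and -5.77 ± 0.16. Fli1 and Prox1, also called lower, were at the floor on all 16 line arrays. Of the ligands, Vegfa was lower in both lines (-1.04 ± 0.09 and -1.95 ± 0.10) and Vegfc was higher (1.61 ± 0.12 and 2.31 ± 0.11). Pgf, which binds Flt1, was higher in SS64 NC (3.24 ± 0.11). Of 10 mural cell genes, 6 were lower in SS40 NC and 5 in SS64 NC, with Rgs5 at -5.48 ± 0.23 and -5.44 ± 0.22. All 12 skeletal muscle genes and 6 of 8 mast cell genes were lower in each line. The part of these cell types and of RNA integrity in the endothelial differences was not tested.

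Within the tumors, most of the 10 genes varied together. Over the 25 tumors, after removal of the SS and SS214 means, Pearson's r for the 45 pairs of genes had a median of 0.53 and ran from -0.05 to 0.94. The closest pairs were Cdh5 with Pecam1 (0.938), Pecam1 with Tek (0.898) and Cdh5 with Tek (0.880). Flt1 stood apart, with r = 0.29 to the mean of the other 9 genes, and Tie1, mostly at the floor, had 0.45. The other 8 genes had 0.63 to 0.89. All points share the array and its scaling, and r is given as a description.

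The mean over the 10 genes ran from 5.26 to 6.61 in SS tumors and from 5.11 to 6.60 in SS214 tumors. SS tumor 5 had the lowest value of its group for 6 of the 10 genes, and SS214 tumor 3 for 5. For Cdh5, SS 5 was at 4.69 while the next SS tumor was at 5.56, and SS214 3 was at 3.74, next to SS214 9 at 4.02. At the other end, SS 23 was highest of its group for 4 genes and SS214 15 for 4. Cdh5 had the widest range, 3.04 over the SS214 tumors, with an SD of 1.02 against 0.52 over the SS tumors.

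**Figure D4:**
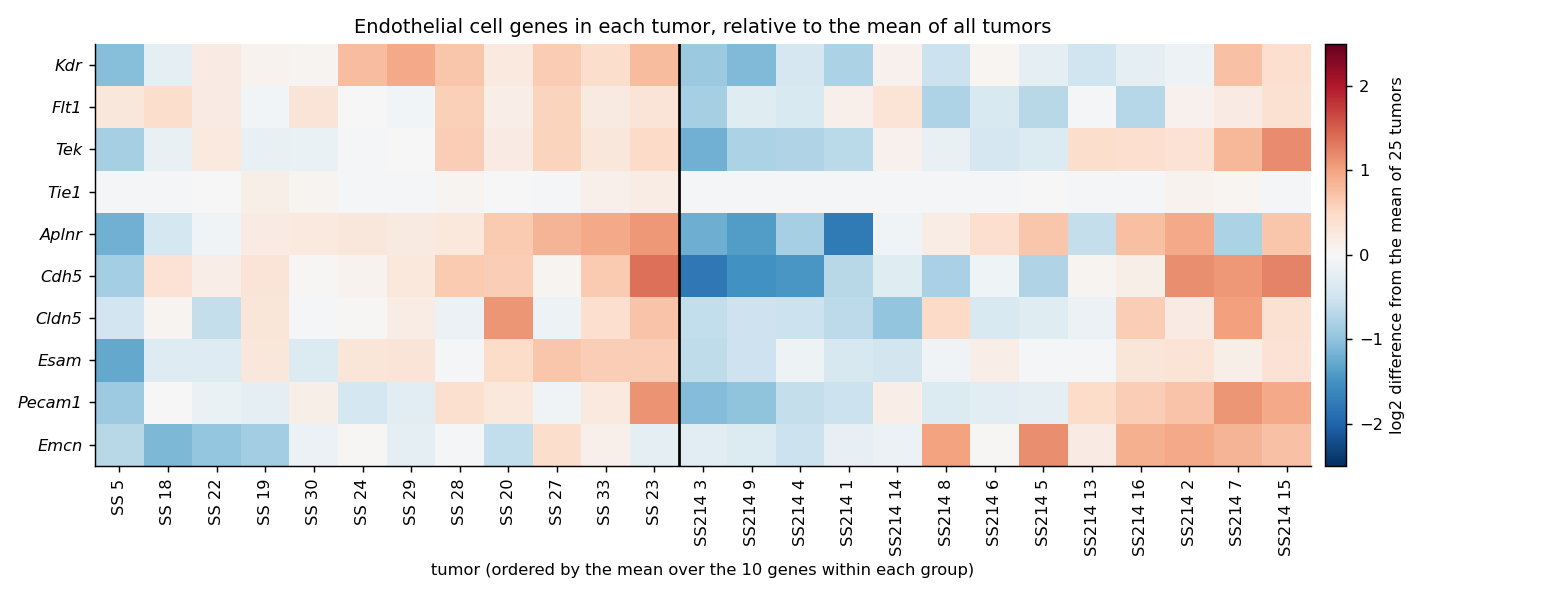
Difference of each endothelial gene from its mean over the 25 tumors (log2, colour scale), with tumors ordered within SS (left) and SS214 (right) by the mean over the 10 genes. SS 5 and SS214 3, 9 and 4 are low for most genes, SS 23 and SS214 15 and 7 are high, and Flt1, Tie1 and Emcn follow this order least.

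The genes whose level was most like the mean of the 10 genes were ranked among 13349 genes above the floor in all tumors. Over the 25 tumors the first were Plvap, the protein of the diaphragms of fenestrated endothelium (r = 0.927), Ptprb, the phosphatase that acts on Tek (0.903), Adgrf5 (0.893), Mmrn2 (0.859) and Cd93, to which Mmrn2 binds (0.857), followed by Fgd5 and Phldb2 (0.838 each) and Arap3 (0.829). Over the 9 group means they were Sox18 (0.993), Sox17 (0.990), Fgd5 (0.988) and Mmrn2 (0.985), then Arhgap25, Ppp1r14a, Gimap4 and Gimap6. With the SS and SS214 means removed, Aqp1, a water channel, was first (0.934), followed by Plvap (0.932), Ptprb (0.898), Adgrf5 (0.888), Itga6 (0.872), Adgrl4, Grk5 and C1qtnf9. Mmrn2, Cd93, Fgd5, Phldb2 and Arap3 were then no longer among the first 8. Some of the ranked genes were high in the lines. Aqp1 had means of 5.14 in SS40 NC and 8.94 in SS64 NC against 8.69 in SS tumors. The same means were 8.30 and 10.62 against 7.11 for Itga6. They were 9.83 and 9.68 against 6.22 for Phldb2, and 6.63 and 6.58 against 5.75 for Grk5. The other ranked genes had lower means in both NC groups than in SS tumors. The mean of the mural cell list had r = 0.76 with the endothelial genes over the 25 tumors, and 0.64 without the 2 tumors farthest from the median. Skeletal muscle had 0.53 and 0.25, and the Gapdh ratio 0.14.

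The question of miR-214 in tumors, where it was carried by the vector from the start, was examined with the SS214 and SS groups, which share no samples. The paper reports raised miR-214, to differing degrees, in tumors with retroviral insertions at Dnm3, and in several tumors without insertions. The SS arrays include SS 18, SS 19 and SS 23, which bear the labels of the tumors with these insertions. The SS group is therefore not a group without raised miR-214, and the part of this in the result was not tested. No endothelial gene was called, beside 2.01% of the 15644 genes tested. The groups overlapped for all 10 genes, and 1.27% of all genes tested did not overlap. The median difference was -0.19 over the endothelial genes and 0.04 over all genes. With the adjusted p alone, which 39.9% of all genes passed, 3 of the 10 genes passed by limma. Emcn was higher in SS214 by 0.70 ± 0.21 (adjusted p = 0.0105, limma), with 5.00 to 6.71 and a median of 5.75 in SS214 and 4.43 to 5.98 and a median of 5.31 in SS. Flt1 was lower by 0.48 ± 0.14 (adjusted p = 0.00802, limma), with medians of 6.61 and 7.15, and Kdr was lower by 0.58 ± 0.21 (adjusted p = 0.0288, limma), with medians of 6.48 and 7.07. No difference of the 10 genes reached 2-fold, so the methods' t-test at unadjusted p under 0.05 could not add a call.

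The widest interval was that of Cdh5, from -1.23 to 0.04. For Pecam1 the interval ran from -0.50 to 0.48, so a change of more than 2-fold lay outside it in either direction. Of the other vessel genes, Unc5b (-1.09 ± 0.20), Ramp2 (-1.01 ± 0.27) and Prox1 (-1.32 ± 0.29) were lower and Lyve1 (1.05 ± 0.35) was higher. No mural cell gene was called. In the same comparison 6 of 9 neutrophil genes (sums of 371 to 18024 in SS214 and 178 to 4951 in SS), 3 of 9 red cell and platelet genes and 2 of 12 macrophage genes were higher. Of 4 lung epithelium genes, 2 were higher, with sums of 55.1 to 4778 in SS214 and 46.4 to 137 in SS, against 18174 to 18954 in the tissue mix. The part of these cell types was not tested. The Gapdh ratio was 0.06 ± 0.14 (SD, n = 13) in SS214, against the 0.85 of the SS tumors. It ran from -0.04 to 0.48 in SS214 and from 0.33 to 1.43 in SS. With this ratio as a covariate no endothelial gene was called, as without it. The ratio nearly follows the groups, so this fit cannot separate RNA integrity from miR-214.

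In the cultured lines no endothelial gene was called after miR-214. Of the 9 genes tested in each line, 0 were called, beside 0.201% of 15443 genes in SS40 and 0.24% of 15403 genes in SS64, and 0 passed the adjusted p alone by limma, beside 1.03% and 12.9%. Cdh5 was at the floor on all arrays and was not tested. The differences ran from -0.26 to 0.29 in SS40 and from -0.13 to 0.17 in SS64, and the 95% intervals lay within -0.55 and 0.56 in SS40 and within -0.39 and 0.45 in SS64. At unadjusted p under 0.05 by limma, 2 genes passed in SS40 (Esam at 0.29 and Tek at -0.26) and 0 in SS64, beside 11.4% and 25.2% of all genes. Kdr lay at 6.37, 6.37, 6.14 and 6.29 with miR-214 in SS40 and at 5.42, 5.39, 5.70 and 5.91 in SS64, overlapping with NC in each line. The interaction contrast, which compares the effect of miR-214 between the lines, called 0 of 9 genes by limma, beside 0.24% of 15828 genes, and 2 of the 9 had an unadjusted p under 0.05 (Esam and Tek), beside 10.2% of all genes.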

How the data were processed

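RNA (100 ng of total RNA per sample) was hybridised to mouse GeneChip PM arrays. The authors deposited 1 table of linear intensity for 45141 probe sets, with MAS5 named in the submitters' processing notes and no version; scaling between arrays and the genome build are not given in the sources used here. Log2 values were computed from the deposited intensity after a floor at 11.7 (the median over arrays of the 20th percentile). Array medians lay between 22.5 and 26.9, and the number of arrays limits the precision. No 2 of the 53 arrays held identical values.

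Gene symbols came from GEO's platform annotation, updated through gene ID where a RefSeq table held it. Of the probe sets, 104 are controls, 28898 had 1 symbol (28689 of these through gene ID), 551 had several and 15692 had none. A probe set entered a fit if 4 or more of its arrays exceeded the floor, and was fitted with limma 3.58.1 (lmFit and eBayes with an intensity trend) in R 4.3.3, on the groups compared only. Benjamini-Hochberg adjustment covered all probe sets tested, and calls took a fold change over 2 with an adjusted p under 0.05. Errors after a difference are limma's SE, and intervals are 95%. The fit was tested on simulated data, scored by the adjusted p without the fold threshold. In the eMC design 100 of 100 probe sets changed 3-fold and 97 of 100 changed 1.5-fold passed. The counts were 93 and 53 for SS tumors against the tissue mix, and 98 and 62 for SS214 against SS tumors. Changed probe sets were drawn only from those brighter, in the group subtracted, than the mean of any endothelial gene in eMC empty. The eMC rates therefore do not cover the endothelial genes. Those for SS214 against SS tumors do not cover Cdh5, Tek, Emcn, Pecam1 and Tie1, whose SS means (3.62 to 5.85) lay below that brightness. Those for the tissue mix do not cover Tie1 (mean 4.55 in the mix). Figures used Python 3.11.15 and matplotlib 3.10.9.

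Groups came from the labels. The 10 genes and all lists were chosen with earlier results of these data known. From each list up to 4 called genes with the largest change were named per comparison. The 8 genes most like the mean of the 10 were taken over tumors and over group means, and the ranking with group means removed was added after seeing the data. Alternatives were other floors, no filter, quantile normalization, other probe set rules, 1 fit of all arrays, the adjusted p alone, the methods' t-test, the replicate number as a block and each replicate of a group of 4 left out. Vegfa in SS40 NC, named for comparison with SS64 NC, was chosen after its values were seen. Leaving out SS 5 or SS214 3 and the Gapdh ratio as a covariate were added after seeing the data. Same-numbered SS64 arrays deviated together (r = 0.22 to 0.35 over probe sets, for 4 pairs). For SS64 miR-214 arrays 1 and 3, an NC array of another number had a higher r (0.38 each). Pairing was therefore not shown, and the labels do not say what a number marks. The main fits were unpaired. The study's methods describe the tissue mixture as human, the labels as mouse, and the labels were followed.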

Additional observations from a re-analysis of the deposited data

Results flagged for a closer look

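In 5 of 65 sets of a gene in a group, 1 array lay apart from the others by Dixon's criterion, run on floored values. Its usual rate of about 1 of 20 sets does not hold where arrays are held at the floor. Cdh5 on eMC empty array 4 was at 3.69, with the others tied at the floor of 3.55, so that any value above it would be flagged. Esam on eMC SS18-SSX1 array 1 was at 7.75, with the others at 7.53 to 7.55. Kdr on the same array was at 7.61, with the others at 7.48 to 7.50. Flt1 on SS40 miR-214 array 4 was at 6.38, with the others at 5.95 to 6.01. Tie1 on SS40 NC array 1 was at 3.65, with the others at 3.55 to 3.56.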

How the results depend on the processing

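The number of endothelial genes called kept within 1.5 times its value under all alternatives except the adjusted p alone, which gave 6 genes in place of 2 for SS tumors against eMC SS18-SSX1 and 3 in place of 0 for SS214 against SS tumors. The median difference ran from 1.64 to 1.83 for the eMCs, from -2.04 to -1.58 against the tissue mix and from 1.25 to 1.41 against eMC empty. Calls lost were those of Pecam1 with the floor at the 40th percentile (0.74 in the eMCs, 0.83 for tumors against eMC empty and -0.83 for either line against tumors), Kdr after quantile normalization and Aplnr against the mix. Calls gained were those of Tie1 against the mix without a floor (-1.01) and of Flt1 in the eMCs and against eMC SS18-SSX1 where any probe set sufficed. The cause was not tested.

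Signs turned only in differences that were not called. For Pecam1 this was -0.00499 against eMC SS18-SSX1 after quantile normalization, and, for SS214 against SS tumors, 0.016 with the higher floor, 0.17 with the Gapdh covariate and -0.093 to 0.079 with a tumor left out. Tie1 in SS214 gave 0.0068 with the Gapdh covariate. In SS64 after miR-214, Tie1 gave 0.043 without a floor, and Aplnr -0.098 with the mean over probe sets. With 1 replicate left out there, Tie1 ran from -0.032 to 0.026, Aplnr from -0.016 to 0.16, Cldn5 from -0.011 to 0.15 and Pecam1 from -0.040 to 0.12. For SS64 NC against tumors, Tie1 gave 0.024 without a floor and -0.039 to 0.014 with a replicate left out. For the interaction, Emcn gave -0.024 after quantile normalization and -0.045 to 0.089 with a replicate left out, Cldn5 -0.056 to 0.11 and Aplnr 0.053 with the mean over probe sets.

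With the replicate number as a block, no endothelial gene gained or lost a call: 8 were called in the eMCs and 0 in either line and in the interaction. Over all genes the block gave 560 calls in the eMCs (560 without), 23 in SS40 (31 without), 37 in SS64 (37 without) and 35 in the interaction (38 without). Same-numbered arrays had r of 0.01 to 0.15 in the eMCs and -0.28 to 0.46 in SS40, and pairing was not shown there either. The methods' t-test was not run for the interaction. Signal near the floor limits Tie1, Cdh5, Pecam1, Aplnr and Tek in the lines and eMC empty cells, and Emcn in the lines.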
